A study of Mus musculus with 4 samples.

Results

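The core circadian clock genes examined here were Per1, Per2, Per3, Dbp, Nr1d1, Nr1d2, Cry1, Cry2, Arntl (the gene of BMAL1) and Clock. They were chosen by gene symbol, taking for each the brightest probe set by its mean over the 4 arrays, and are 10 of 30921 gene symbols on the array. Each of the 10 genes had 1 probe set, so no probe set was set aside, and these are 10 of the 33793 probe sets measured. The genes were described array by array to ask whether they differed between the genotypes or between the replicate numbers, since these transcripts follow the time of day.

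The arrays were 4 Mouse Gene 2.0 ST arrays, each with RNA of the right hippocampus of 1 mouse, and all mice were males of postnatal day 90. The 2 mice labelled IPMK cKO carried floxed Ipmk alleles and the CaMKII-Cre transgene (Ipmk f/f;CaMKII-Cre), and the 2 mice labelled IPMK WT were littermates with the same floxed alleles and no Cre (Ipmk f/f). The CaMKII promoter drives Cre in excitatory neurons of the postnatal forebrain, so glia, interneurons and vessels of a cKO hippocampus keep the intact gene. All mice were behaviourally naive, were kept on a light-dark cycle and were fed freely, and the hour of dissection is not given in the sources used here.

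The mammalian clock is a feedback loop of transcription. BMAL1 and CLOCK bind E-boxes as a pair and drive the Per, Cry, Nr1d and Dbp genes, and the PER and CRY proteins then enter the nucleus and inhibit that pair. In a second loop, the nuclear receptors encoded by Nr1d1 and Nr1d2 (REV-ERBs) repress Arntl through ROR elements, and the bZIP activator DBP acts on D-boxes such as those of the Per genes. The loop runs in most cells of the body, the hippocampus included, and it sets Dbp and Nr1d1 on one side of the day and Arntl on the other, so that tissue taken at different hours can differ in opposite directions between these genes.

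Promoter sequences with letter matches to these motifs are shown because the 2 loops act through such motifs. RefSeq promoter windows on GRCm38.p6, from 250 bases before to 50 bases after a gene's start, were at hand for 9 of the 10 genes. No window was at hand for Per2. Both strands of 13 windows were searched for the E-box CACGTG, the related E′-box CACGTT, the D-box TTATGTAA and the core of the ROR element, AGGTCA. Each sequence below is on the strand of its gene, 5′ to 3′, with the motif in capitals (the E′-box sites show its reverse complement), at chr11:69098772-69098799 for Per1, chr4:151044852-151044881 and chr4:151044805-151044834 for Per3, chr11:98775389-98775416 for Nr1d1, chr14:18239167-18239194 for Nr1d2, chr10:85185098-85185125 and chr10:85185117-85185144 for Cry1, and chr2:92434219-92434246 for Cry2.
Per1, E-box, 166 bases before the start: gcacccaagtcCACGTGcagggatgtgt
Per3, D-box, 205 bases before the start: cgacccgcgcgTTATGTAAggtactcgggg
Per3, D-box, 158 bases before the start: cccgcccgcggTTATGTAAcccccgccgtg
Nr1d1, E′-box, 28 bases before the start: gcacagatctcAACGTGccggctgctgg
Nr1d2, ROR element core, 77 bases before the start: attggaagaagAGGTCAggaccgctcgt
Cry1, E-box, 60 bases before the start: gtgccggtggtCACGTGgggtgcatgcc
Cry1, E′-box, 79 bases before the start: cacacttcagaAACGTGaggtgccggtg
Cry2, E′-box, 166 bases before the start: cacatggtgggAACGTGagggggcggag
The E-box was found for 2 of the genes and in 7.15% of all 32851 promoter windows, and the E′-box for 3 of them and in 4.68% of all windows. The D-box was found for 1 gene, Per3, and in 0.938% of all windows, while the ROR element core was found for 4 (Per1, Nr1d2, Arntl and Clock) and in 16.3% of all windows. For each motif the number of matching windows among the 13 was the same as the number of genes. A match is a run of letters in a short window and says nothing of binding in the hippocampus.

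The targeted gene went against its label. The first of 2 Ipmk probe sets read 8.44 and 8.78 on the arrays labelled IPMK cKO, against 7.68 and 7.71 on the arrays labelled IPMK WT, and the second read 6.97 and 6.43 on the cKO arrays, against 5.78 and 5.52 on the WT arrays (log2 RMA values, as are all levels below). Ipmk was thus higher on the arrays labelled cKO, by 0.92 (SE 0.15) and 1.05 (SE 0.21) on the log2 scale (limma, adjusted p = 0.9999 for both). Whether these probes lie outside the deleted part of the gene is not given in the sources used here, and whether labels were exchanged between the arrays was not tested, so every direction between genotypes below holds for the arrays as labelled. The array medians lay between 5.1 and 5.15, and 29.1% of probe sets had a mean under 4, where the signal is dim. Prox1, a marker of dentate granule cells, read 8.41 and 7.95 on the cKO arrays, against 8.27 and 8.10 on the WT arrays. No other tissue was on these arrays to set it against, so the hippocampal origin was not tested. Ttr of the choroid plexus, which adjoins the hippocampus, read 12.36 and 12.75 on the cKO arrays, against 12.83 and 12.63 on the WT arrays.

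None of the 10 clock genes differed between arrays labelled IPMK cKO and arrays labelled IPMK WT in limma after Benjamini-Hochberg adjustment over all 33793 probe sets (adjusted p = 0.9999 for each), in a comparison in which 0.0% of all probe sets were called. None had an unadjusted p under 0.05 either, where 2.86% of all probe sets did and 0.578% of those with a mean of at least 6. The differences, cKO minus WT, ran from -0.09 (Cry1) to 0.21 (Per3) on the log2 scale with a median of 0.07, beside a median of 0.00 over all probe sets. Of the 10 genes, 7 had the higher mean on the cKO arrays, as did 48.4% of all probe sets and 56.2% of those with a mean of at least 6. The 95% confidence interval of every one of the 10 differences stayed within 1.5-fold in either direction. In 4 of the 10 genes (Per1, Per2, Per3 and Cry2) both cKO arrays read above both WT arrays, and in none did both read below. Over all probe sets the arrays separated in this way in 27.2%, with cKO higher in 12.4% and lower in 14.8%, and among the 12286 probe sets with a mean of at least 6, where all 10 clock genes lie, in 21.6%, with cKO higher in 13.1% and lower in 8.44%.

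**Figure D1:**
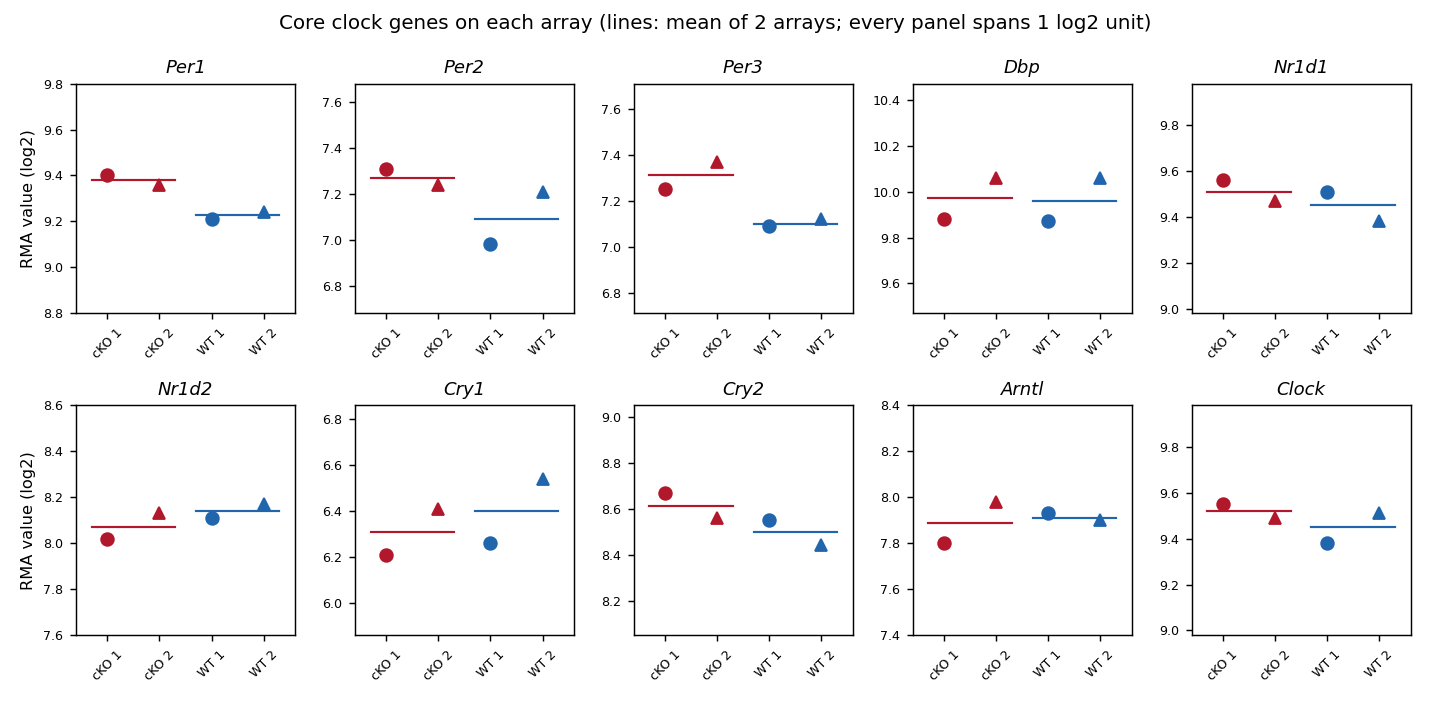
Level of each core clock gene on each array, as log2 RMA value, with IPMK cKO arrays left of IPMK WT arrays and replicate number by marker. The arrays of a gene lie within 0.15 to 0.33 log2 units of each other, and both cKO arrays read above both WT arrays in Per1, Per2, Per3 and Cry2.

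The 3 Period genes, the inhibitors that close the loop, were higher on both cKO arrays. Per1, which also answers acutely to neuronal activity and to glucocorticoids, read 9.40 and 9.36 on the cKO arrays, against 9.21 and 9.24 on the WT arrays. The groups were 0.12 apart at their nearest arrays and differed by 0.16 (SE 0.12, 95% CI -0.13 to 0.45), or 1.11-fold. Per2, which encodes an inhibitor that CRY proteins bind in the complex, read 7.31 and 7.24 on the cKO arrays, against 6.98 and 7.21 on the WT arrays. Its groups were only 0.04 apart, the first WT array stood lowest, and the difference was 0.18 (95% CI -0.16 to 0.51), or 1.13-fold. Per3, a paralog that the mouse clock can run without, read 7.25 and 7.37 on the cKO arrays, against 7.09 and 7.12 on the WT arrays. It had the largest genotype difference of the 10 genes, 0.21 (SE 0.12, 95% CI -0.09 to 0.51), or 1.16-fold, with 0.13 between the nearest arrays. Each of these intervals includes 0, so a difference between the genotypes was not shown for any Period gene with 2 arrays per genotype.

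Dbp and the REV-ERB genes are driven directly by BMAL1 and CLOCK, and the genotypes overlapped in all 3. Dbp read 9.88 and 10.06 on the cKO arrays, against 9.87 and 10.06 on the WT arrays, and its group means differed by 0.00 (95% CI -0.35 to 0.35). The genotypes overlapped fully, and the arrays of like replicate number read nearly the same value. Nr1d1 read 9.56 and 9.47 on the cKO arrays, against 9.51 and 9.38 on the WT arrays, a difference of 0.07 (95% CI -0.24 to 0.38). Nr1d2 read 8.02 and 8.13 on the cKO arrays, against 8.11 and 8.17 on the WT arrays, a difference of -0.07 (95% CI -0.37 to 0.24). The genotypes overlapped in both REV-ERB genes, whose differences had opposite signs.

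The cryptochrome genes encode the CRY proteins, which inhibit BMAL1 and CLOCK together with the PER proteins. Cry1 read 6.21 and 6.41 on the cKO arrays, against 6.26 and 6.54 on the WT arrays, and differed by -0.09 (95% CI -0.47 to 0.30). Cry1 was the dimmest of the 10 probe sets and had the widest interval. Cry2 read 8.67 and 8.56 on the cKO arrays, against 8.55 and 8.44 on the WT arrays, and differed by 0.12 (95% CI -0.19 to 0.43), with 0.01 between the nearest arrays of the 2 genotypes.

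The genotypes overlapped in both activators. Arntl, the only one of the 10 genes whose loss alone stops the mouse clock, read 7.80 and 7.98 on the cKO arrays, against 7.93 and 7.90 on the WT arrays, and the WT arrays lay between the cKO arrays (difference -0.02, 95% CI -0.34 to 0.30). Clock read 9.55 and 9.49 on the cKO arrays, against 9.38 and 9.51 on the WT arrays, and the genotypes overlapped (difference 0.07, 95% CI -0.23 to 0.38). Npas2, a paralog that can stand in for Clock in the forebrain, read 8.79 and 8.90 on the cKO arrays, against 8.63 and 8.93 on the WT arrays, a difference of 0.07.

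By replicate number, Dbp and Cry1 were higher on both replicate 2 arrays than on both replicate 1 arrays, by 0.19 (SE 0.09, 95% CI -0.04 to 0.42, 1.14-fold) and 0.24 (SE 0.10, 95% CI -0.01 to 0.49, 1.18-fold), and neither passed the test (limma, adjusted p = 0.473 for Dbp and 0.43 for Cry1). The Dbp arrays of 1 replicate number differed by 0.01 or less between genotypes, and replicate 2 exceeded replicate 1 by 0.18 on the cKO arrays and by 0.20 on the WT arrays. For Cry1 the step between replicates was 0.20 on the cKO arrays and 0.28 on the WT arrays. Nr1d2 was higher on both replicate 2 arrays by 0.09 (95% CI -0.16 to 0.33) with 0.02 between the nearest arrays. Nr1d1 was lower on both replicate 2 arrays by 0.11 on the log2 scale (95% CI of the difference -0.35 to 0.13) with 0.04 between them. The Dbp and Nr1d1 estimates had opposite signs, but both intervals include 0, so a direction between the replicate numbers was not shown for either. The median absolute difference by replicate number was 0.12 over probe sets with a mean of at least 6.

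The Period genes and the activators overlapped between the replicate numbers. Per1 differed by -0.01, Per2 by 0.08 and Per3 by 0.08, replicate 2 minus replicate 1. Arntl differed by 0.08 (95% CI -0.18 to 0.33), with a step of 0.18 on the cKO arrays and of -0.03 on the WT arrays, and Clock by 0.04 (95% CI -0.23 to 0.30). Cry2 was lower on replicate 2 by 0.11 within each genotype, and the arrays overlapped by 0.01. Over the 10 genes the median difference was 0.08, beside -0.01 over all probe sets, and all 10 confidence intervals again stayed within 1.5-fold. The replicates did not overlap in 4 of the 10 genes (3 higher and 1 lower on replicate 2), beside 44.7% of all probe sets, with 22.0% higher and 22.7% lower, and 57.6% of probe sets with a mean of at least 6, with 33.0% higher and 24.5% lower. After adjustment 0.0% of all probe sets were called in this comparison. An unadjusted limma p under 0.05 was seen in 12.1% of all probe sets and in 15.8% of those with a mean of at least 6. None of the 10 clock genes was among them, although Dbp and Cry1 were under 0.05 before adjustment with an intensity trend and with a filter at a mean of 6. By the labels, the replicate 2 arrays came from animals 1557 (cKO) and 1558 (WT) and the replicate 1 arrays from animals 1568 (cKO) and 1566 (WT), so arrays of like replicate number also have neighbouring animal numbers. The controls were littermates, but which mice shared a litter, a day or an hour of collection is not given in the sources used here.

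**Figure D2:**
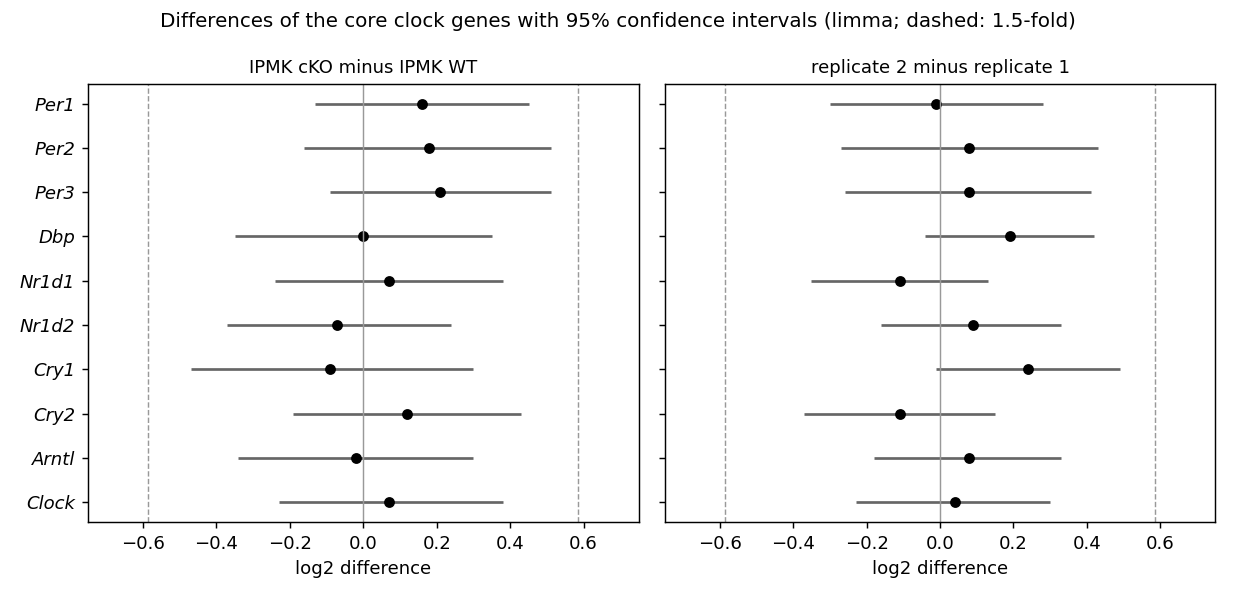
Log2 difference of each core clock gene with its 95% confidence interval from limma, for IPMK cKO minus IPMK WT and for replicate 2 minus replicate 1. Every interval includes 0 and stays within 1.5-fold, and the largest differences are Per3 by genotype (0.21) and Cry1 by replicate number (0.24).

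No single order of the arrays ran through the clock genes. The 10 genes put the 4 arrays in 8 different orders, and no order was shared by more than 2 genes. The first cKO array was the highest in 5 genes and the lowest in 3, and the first WT array was the highest in none and the lowest in 5 (Per1, Per2, Per3, Dbp and Clock). The spread from the lowest to the highest array had a median of 0.19 over the 10 genes and reached 0.32 in Per2 and 0.33 in Cry1, both 1.25-fold. Over all probe sets with a mean of at least 6 the median spread was 0.24, and 29.6% of them were spread more widely than Cry1 and 74.6% more widely than Nr1d2, the narrowest of the 10.

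The 2 sides of the loop were then set against each other on each array, as deviations from a gene's mean over the 4 arrays. Of the genes that BMAL1 and CLOCK drive, Cry1 and Cry2 were kept as a group of their own. The mean deviation of the other 6 (Per1, Per2, Per3, Dbp, Nr1d1 and Nr1d2) was 0.03 and 0.06 on the cKO arrays, against -0.08 and -0.01 on the WT arrays. That of Arntl and Clock was -0.02 and 0.04 on the cKO arrays, against -0.04 and 0.01 on the WT arrays, and with Npas2 added it was -0.02 and 0.06 on the cKO arrays, against -0.09 and 0.05 on the WT arrays. The 2 sides lay on opposite sides of their mean on the first cKO and the second WT array and on the same side on the other 2 arrays. Without Npas2 no mean deviation exceeded 0.08 log2 units in size, and with it the largest was -0.09, on the first WT array. Whether the mice were taken at different hours was not tested, since no hour is given against which to set these values.

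**Figure D3:**
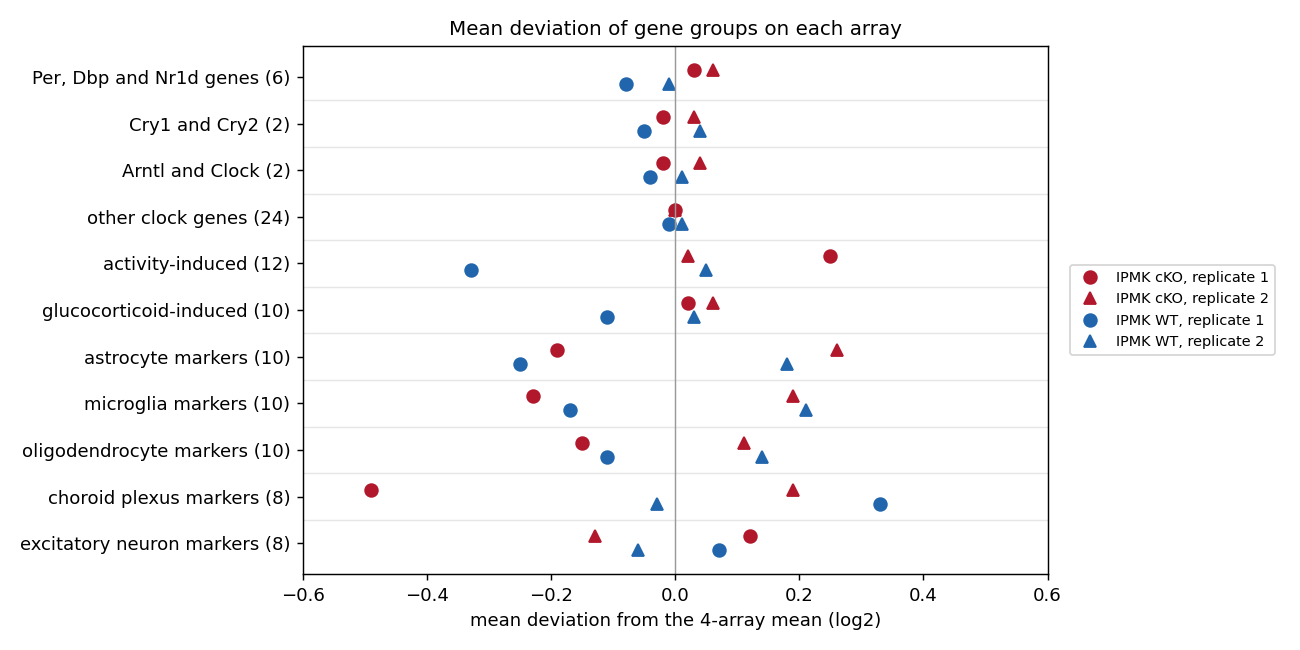
Mean deviation of each gene group from its 4-array mean (log2) on each array, with IPMK cKO in red, IPMK WT in blue, replicate 1 as circles and replicate 2 as triangles, and the number of genes in brackets. The clock groups lie within 0.08 of 0, while activity-induced genes lie at 0.25 on the first cKO array and -0.33 on the first WT array, and astrocyte and microglia markers lie higher on both replicate 2 arrays.

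The other genes of the clock pathway were examined in the same way. Of 24 such genes, all measured, none passed the adjusted test in either comparison. In each comparison the 95% confidence interval stayed within 1.5-fold in 23 of the 24, where it did so in all 10 core clock genes. Between genotypes 14 were higher and 10 lower by their means, with a median of 0.01. The higher mean lay on the cKO arrays in 48.4% of all probe sets. Of the 24, 4 were higher and 3 lower on both cKO arrays without overlap, beside 12.4% and 14.8% of all probe sets. Wdr5, a histone methyltransferase subunit found with PER proteins, was among those of lowest p. It read 6.62 and 6.59 on the cKO arrays, against 6.81 and 6.82 on the WT arrays (difference -0.21, 95% CI -0.49 to 0.08). It was lower on both cKO arrays, and the difference did not pass.

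Between replicate numbers 12 of the 24 were higher and 12 lower, with a median of 0.01. Bhlhe41 (DEC2), a repressor that competes for E-boxes, read 7.94 (cKO) and 7.95 (WT) on the replicate 2 arrays, against 7.69 (cKO) and 7.65 (WT) on the replicate 1 arrays. Rorb, a ROR receptor of the brain, read 8.99 (cKO) and 9.0 (WT) on the replicate 2 arrays, against 8.74 (cKO) and 8.75 (WT) on the replicate 1 arrays. Both thus separated the replicate numbers with almost no difference between the genotypes, as Dbp did, by 0.28 (95% CI 0.04 to 0.51) for Bhlhe41 and 0.25 (95% CI 0.03 to 0.48) for Rorb. These 2 had an unadjusted p under 0.05, as did 12.1% of all probe sets and 15.8% of those with a mean of at least 6. Both failed the adjustment (limma, adjusted p = 0.362 and 0.384). Without overlap, 6 of the 24 were higher and 5 lower on replicate 2, beside 22.0% and 22.7% of all probe sets.

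**Figure D4:**
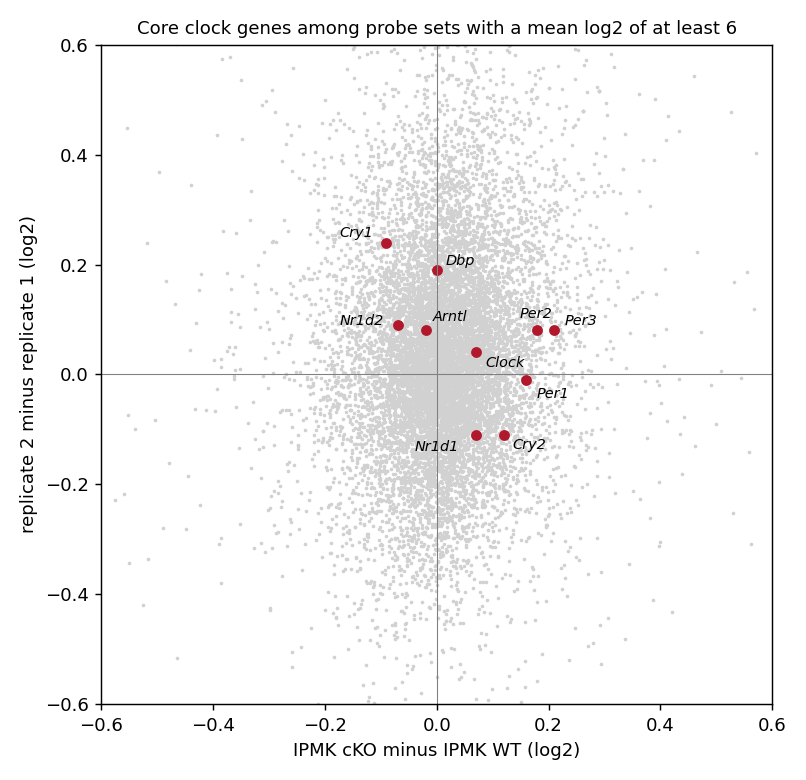
Log2 difference by genotype (IPMK cKO minus IPMK WT, x axis) and by replicate number (replicate 2 minus replicate 1, y axis) of the 10 core clock genes (red) among the 12286 probe sets with a mean of at least 6 (grey), of which 215 lie outside the axes. The 3 Period genes lie to the right, at 0.16 to 0.21, with little difference by replicate number, while Cry1 and Dbp lie high, at 0.24 and 0.19.

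Markers of cell types differed with the replicate numbers. Of 10 astrocyte markers, such as Gfap and Aqp4, all were higher on both replicate 2 arrays (median difference 0.48, 9 with an unadjusted p under 0.05, none after adjustment), and their summed linear level was 10700 and 10200 on the replicate 2 arrays, against 8260 and 7790 on the replicate 1 arrays. Of 10 microglia markers 9 were higher without overlap (median 0.41), with a summed level of 2890 and 2870 on the replicate 2 arrays, against 2030 and 2150 on the replicate 1 arrays. The dimmest of the defining markers of these cells was Aif1 of microglia, at 5.18 and 5.14 on the cKO arrays, against 5.20 and 5.42 on the WT arrays. All 10 oligodendrocyte markers were also higher (median 0.25), while 7 of 8 excitatory neuron markers had the lower mean on replicate 2 (median -0.18). Beside these counts, 22.0% of all probe sets were higher on replicate 2 without overlap, and 33.0% of those with a mean of at least 6. An unadjusted p under 0.05 in limma, in either direction, was seen in 12.1% of all probe sets and in 15.8% of those with a mean of at least 6. In whole tissue, fewer cells of a type and less RNA per cell cannot be told apart. The clock runs in neurons and in glia alike, and the part of these markers in the replicate differences of Dbp, Cry1, Nr1d2, Bhlhe41 and Rorb was not tested.

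Choroid plexus markers and activity-induced genes were spread unevenly over the arrays, and none had an unadjusted p under 0.05 between genotypes. Over all probe sets, 48.4% had the higher mean on the cKO arrays (56.2% of those with a mean of at least 6). All 8 choroid plexus markers, such as Ttr, had the lower mean on the cKO arrays (median -0.34) without separating the genotypes, and their summed level was 9180 and 12300 on the cKO arrays, against 13200 and 11200 on the WT arrays, with the first cKO array lowest. Of 12 activity-induced genes, which neurons switch on within minutes of firing, 11 had the higher mean on the cKO arrays (median 0.25), 5 of them without overlap, as in 12.4% of all probe sets, and none with an unadjusted p under 0.05. Their mean deviation was 0.25 and 0.02 on the cKO arrays, against -0.33 and 0.05 on the WT arrays, so the 2 replicate 1 arrays were far apart and the 2 replicate 2 arrays were not. Fos read 6.29 and 6.01 on the cKO arrays, against 5.19 and 5.95 on the WT arrays (difference 0.58, 95% CI -0.08 to 1.24, and 0.20 to 0.96 leaving out 1 array), and Nr4a1 read 9.21 and 8.89 on the cKO arrays, against 8.39 and 8.89 on the WT arrays (difference 0.41, and 0.16 to 0.66 leaving out 1 array). The first WT array stood alone as the low one in both, as it did in Per2, while in Per1 and Per3 both WT arrays were low. Per1 is itself induced by activity, and the part of these genes in the Period differences was not tested. By replicate number the 2 activity-induced genes of lowest p were Ier2 (0.18) and Egr4 (0.15), with a median of 0.06 over the list.

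Glucocorticoids and body temperature also reach the Per genes. Of 10 glucocorticoid-induced genes, 8 had the higher mean on the cKO arrays (median 0.07), beside 48.4% of all probe sets. Sgk1, a kinase gene induced by corticosterone, read 8.14 and 8.21 on the cKO arrays, against 7.79 and 7.87 on the WT arrays (difference 0.35, 95% CI 0.05 to 0.64, adjusted p = 0.9999), and was the only one of the 10 with an unadjusted p under 0.05 between genotypes. Sult1a1 differed by -0.14. Between the replicate numbers the list had a median of 0.07. Without overlap, 3 of the 10 were higher and 3 lower on replicate 2, beside 22.0% and 22.7% of all probe sets. Pdk4, a kinase gene of fuel choice, read 7.72 and 7.75 on the replicate 2 arrays, against 7.29 and 6.91 on the replicate 1 arrays (difference 0.63, 95% CI 0.25 to 1.01, adjusted p = 0.307, but 0.0417 with an intensity trend), and Tsc22d3 differed by 0.27 between the replicate numbers. Of 8 temperature-responsive genes, Hspa1b, an inducible heat-shock gene, read 6.29 and 6.42 on the cKO arrays, against 6.06 and 5.77 on the WT arrays (difference 0.44, 95% CI 0.07 to 0.81, adjusted p = 0.9999). Hspa1a, its near-identical copy, differed by 0.15 between genotypes. The array annotation marks both probe sets as unique, but whether their probes share targets was not tested, so signals of the pair remain uncertain. Without overlap, 4 of the 8 were higher on the cKO arrays and 2 lower, beside 12.4% and 14.8% of all probe sets. The 2 lower ones were Cirbp (-0.17) and Rbm3 (-0.14). Hsph1 and Hsp90aa1 differed by -0.25 and -0.20 between the replicate numbers, and 7 of the 8 temperature-responsive genes had the lower mean on replicate 2. Over all probe sets, 48.6% had the higher mean on replicate 2. The list was not divided by whether heat or cold induces a gene. None of these genes passed the adjusted test in either comparison.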

How the data were processed

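The deposited values are log2 gene-level signals that the authors made by RMA in Affymetrix Expression Console from 4 arrays. RMA subtracts background, quantile normalizes and summarises the probes of a probe set, so arrays share nearly the same distribution. The number of arrays limits the precision. The authors also deposited their fold changes, LPE statistics, adjusted p-values, group means and SDs, which were not used, and 4 further columns of per-array values were not used. The array annotation names no genome build, so probe set positions are not used beside the GRCm38.p6 sequences, which come from RefSeq.

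Differences were fitted with limma 3.58.1 (lmFit, eBayes) in R 4.3.3, once for IPMK cKO minus IPMK WT and once for replicate 2 minus replicate 1, p-values being adjusted by Benjamini-Hochberg over the 33793 probe sets and a call made at an adjusted p under 0.05. Tables and figures were made in Python 3.11.15 with matplotlib 3.10.9. With 2 arrays against 2, an exact permutation test cannot go below p = 0.333, so none was used. Each array is 1 mouse, so in the genotype comparison p-values measure the spread between mice of 1 genotype as well as between arrays. In the replicate comparison genotype was not in the model. Its SEs, intervals and p-values thus rest on the spread between a cKO and a WT mouse of 1 replicate number, not between like mice. The alternatives tried were a robust prior, an intensity trend, a block for the other factor, median centring, renewed quantile normalization, filters at a mean of 4 and 6, unique probe sets, averaging over each gene's probe sets, the series value table, leaving out each array, the LPE test rewritten from its description (100 bins, span 0.2) and the methods' t-test. The fits were tested on simulated data.

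The genes and the lists of other clock genes, activity-induced, glucocorticoid-induced and temperature-responsive genes and cell type markers were chosen with earlier results of these data known. All core clock genes are named. Of the other lists except the markers, the genes with an unadjusted p under 0.05 and the 2 of lowest p in each comparison are named, and of the markers at most 2. Cirbp and Rbm3 are named besides, as the temperature-responsive genes that were lower on the cKO arrays. One gene that this rule would name is not reported here.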

Additional observations from a re-analysis of the deposited data

How the results depend on the processing

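None of the 10 core clock genes and none of the 24 other clock genes passed the adjusted test in either comparison under any alternative. Before adjustment, Per1 was under 0.05 by genotype in the methods' t-test. By replicate number Dbp was so with an intensity trend, a filter at a mean of 6, the LPE test and the methods' t-test, and Cry1 with an intensity trend, median centring and filters at a mean of 4 and of 6. Of 320 values of the core clock genes under the alternatives, 307 kept their direction and 13, none of them called, did not. By genotype, Dbp was -0.03 after renewed quantile normalization, and leaving out 1 array gave -0.09 to 0.10 for Dbp, -0.23 to 0.05 for Cry1 and -0.11 to 0.07 for Arntl. By replicate number, Per1 was 0.02 after median centring, and leaving out 1 array gave -0.11 to 0.08 for Per1, -0.08 to 0.24 for Per2, -0.05 to 0.20 for Per3 and -0.04 to 0.12 for Clock. Leaving out 1 array kept the genotype difference of Per1 between 0.13 and 0.18, of Per2 between 0.07 and 0.29 (0.07 without the first WT array), of Per3 between 0.15 and 0.27 and of Cry2 between 0.06 and 0.17, and the replicate difference of Dbp between 0.18 and 0.19 and of Cry1 between 0.18 and 0.30. The median over the 10 genes then lay between 0.04 and 0.10 by genotype and between -0.02 (without the first WT array) and 0.10 by replicate number. The cause of these shifts was not tested.

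Pdk4 passed between the replicate numbers with an intensity trend (limma, adjusted p = 0.0417) and in the LPE test (adjusted p = 0.000387), and its adjusted p reached 0.638 under other alternatives. Over all probe sets, 0 passed the adjusted test by genotype in limma, 966 had an unadjusted p under 0.05 and the LPE test called 2. By replicate number limma called 0, with 4091 at an unadjusted p under 0.05, but 883 with an intensity trend, 619 with a filter at a mean of 6 and 908 in the LPE test. Of the unadjusted calls, 34.3% were higher on cKO arrays, against 44.0% after median centring and 47.4% after quantile normalization, and 54.5% were higher on replicate 2, against 66.2% after median centring. With the replicate number as a block, 0 probe sets passed by genotype and 1502 had an unadjusted p under 0.05, none of them a core clock gene. Same-numbered arrays share a number and have neighbouring animal numbers, but the labels name no shared litter or day, so they were not treated as pairs (the replicate 2 minus replicate 1 differences of the 2 genotypes correlate at 0.244 over probe sets). With 2 mice per genotype, a difference of the size seen in the Period genes did not pass any of these tests after adjustment.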

Other observations

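The remaining marker lists were measured on the same arrays, and none of their genes passed the adjusted test. Of 10 markers of the hippocampal subfields, such as Prox1 of dentate granule cells, 8 had the lower mean on replicate 2 (median -0.20). Of these markers 4 had an unadjusted p under 0.05 by replicate number, beside 12.1% of all probe sets and 15.8% of those with a mean of at least 6. Between genotypes their median was -0.03. Of 8 thalamus markers, 7 had the higher mean on replicate 2 (median 0.21) and 6 the higher mean on the cKO arrays (median 0.12). The 8 endothelial markers had a median of -0.10 by genotype and -0.02 by replicate number, the 8 inhibitory neuron markers -0.07 and -0.01, and 8 reference genes 0.00 and -0.01.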
